A study of Mus musculus with 6 samples.

Results

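The 10 genes described here encode core parts of the Notch pathway: the receptors Notch1, Notch2 and Notch3, the ligands Dll1, Dll3, Dll4, Jag1 and Jag2, the glycosyltransferase Lfng and the nuclear effector Rbpj. They were taken by gene symbol, and all probe sets annotated to a single one of these symbols were used, which gave 20 probe sets of 34945 with a single symbol, and 10 genes of 18193. Notch signalling passes between cells in contact. A ligand of the Delta or Jagged family on one cell binds a Notch receptor on its neighbour, the receptor is cut by ADAM proteases and then by gamma-secretase, and its freed intracellular part joins the DNA-binding protein Rbpj and a Mastermind coactivator to switch on repressors such as Hes1 and Hes5. In the developing retina the pathway is known for holding progenitor cells undifferentiated, while newly born neurons carry the Delta ligands that signal to them.

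RNA of these genes was measured in retinas of newborn mice, with 3 pools of retinas from Cyclin D1 -/- animals (knockout) and 3 pools from wildtype animals, each pool on 1 Affymetrix array. The -/- genotype denotes loss of both copies of Ccnd1, which encodes a D-type cyclin that drives cells from G1 into S phase. The question was how transcription changes when cyclin D1 is missing. The labels do not say how many animals made up a pool or whether pools shared litters, so the spread behind every p-value is that among these pools, and part of it may be technical.

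Values below are quantile-normalised signals in array units, and differences are knockout minus wildtype on the scale of log2(signal + 16), so that changes of dim genes come out too small. A gene was read from its brightest probe set, 10916 genes were bright enough to test, and a gene was called at a limma adjusted p under 0.1, the false discovery rate named in the labels. Median deposited signals of the 6 arrays ran from 40.6 to 50.5, and precision is limited by having 6 arrays. The Ccnd1 signal was 432 to 468 in the knockout pools and 5218 to 6016 in the wildtype pools, and its difference of -3.59 was in the direction the labels name. Within a genotype, pools 1 and 2 resembled each other more than any other pair of arrays. The SD of their log2 difference was 0.206 in knockout and 0.223 in wildtype, against 0.275 to 0.517 for other pairs. Arrays were also ranked by their BioB and BioC hybridisation controls and cut into 3 brighter and 3 dimmer ones. The brighter were knockout pools 1 and 2 and wildtype pool 3 (mean log2 9.817 to 10.145), and the others had 9.525 to 9.664. This cut is by rank alone, without a wider gap there, and the labels name no such sets. Whether pools 1 and 2 share tissue or RNA is not stated. They may not be independent samples, in which case every SE, interval and p-value below rests on fewer samples than 3 a genotype. All 10 listed retinal progenitor markers that the array names, Pax6 and Rax among them, were bright enough to test.

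Among the Notch family genes, Notch1 was lower in knockout retinas and no other member passed the test in either direction. Of 9 members bright enough to test, 1 was called lower and 0 higher by limma, beside 2.63% of all tested genes called lower and 2.03% called higher. At an unadjusted p under 0.05 there were 2 lower (Notch1 and Dll1) and 0 higher, beside 13.5% of all tested genes in either direction. With the error model in the labels 1 member was called lower (Notch1) and 0 higher, beside 120 and 88 of all 10916 tested genes. The median log2 difference of the 9 members was -0.05, against 0.02 for all tested genes. Knockout and wildtype signals did not overlap for Notch1 and Dll1, with knockout lower, and for Dll3, with knockout higher, beside 9.48% and 10.5% of all tested genes.

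**Figure D1:**
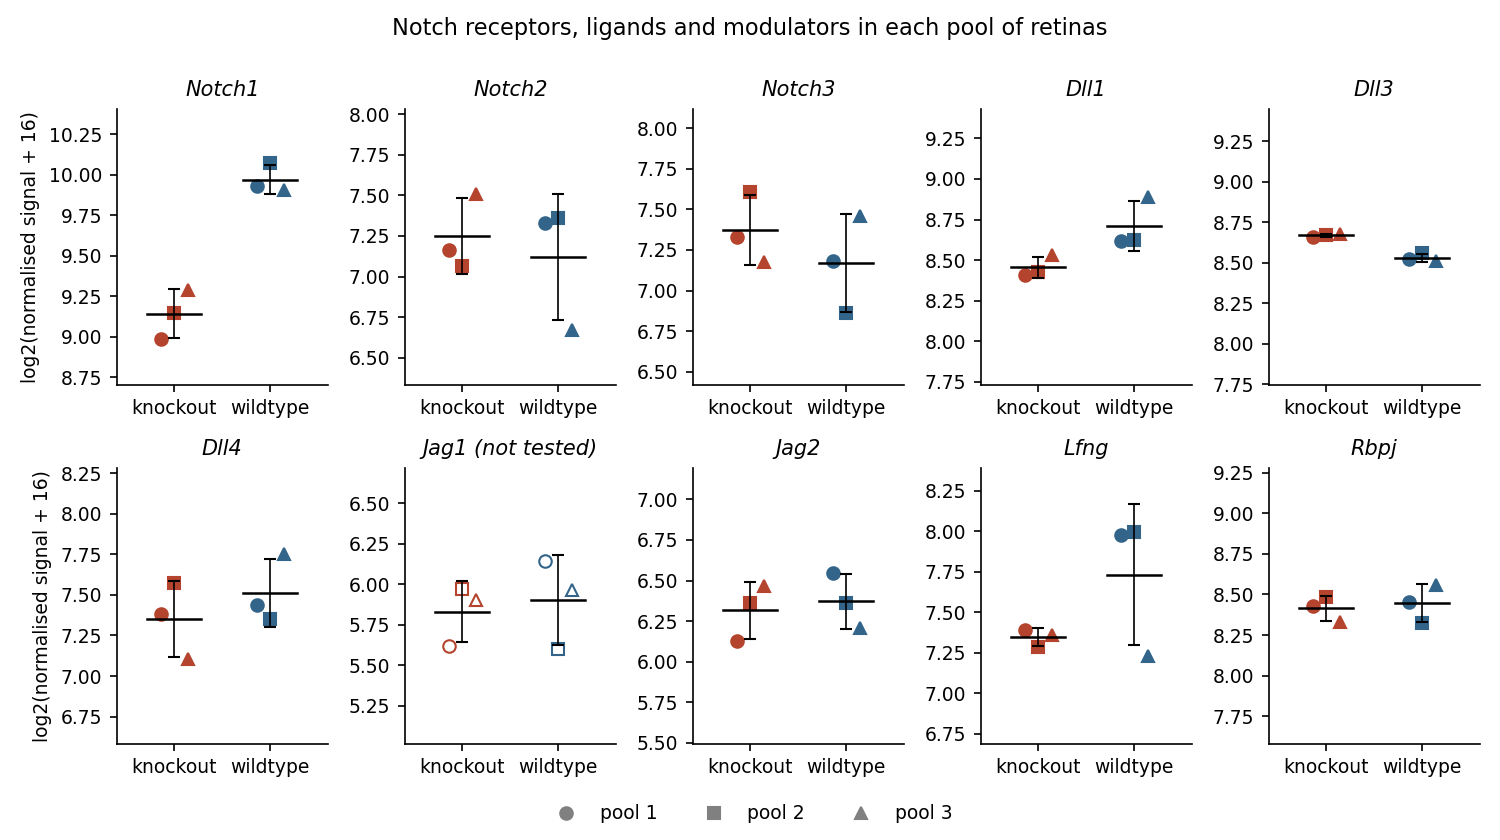
Signal of the 10 genes in each pool, as log2(normalised signal + 16), with knockout on the left and wildtype on the right of each panel. Points are pools, the long bar is the mean and the error bar the SD (n = 3). All panels span the same height, and open symbols mark Jag1, which was too dim to test; the knockout and wildtype points are farthest apart for Notch1, and wildtype pool 3 lies below the other wildtype pools for Lfng and Notch2.

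The sequences just upstream of 3 genes are shown, searched for motifs of Rbpj, whose binding was not measured in these data. Notch1 is the called receptor, and Hes5 is a target of the pathway whose signal followed that of Notch1 across the pools (below). Lfng is the only member whose window holds the longer of the Rbpj motifs searched. Each sequence is the 250 bases before the gene's start in RefSeq, build GRCm38.p6, written 5′ to 3′ along the gene's strand. All 10 members had a window in RefSeq, 12 windows in all, since Dll1 and Rbpj have more than 1 start. Capitals mark TGGGAA, the core of the sequence that Rbpj binds, or its reverse complement.
Notch1, chr2:26503823-26504072, minus strand: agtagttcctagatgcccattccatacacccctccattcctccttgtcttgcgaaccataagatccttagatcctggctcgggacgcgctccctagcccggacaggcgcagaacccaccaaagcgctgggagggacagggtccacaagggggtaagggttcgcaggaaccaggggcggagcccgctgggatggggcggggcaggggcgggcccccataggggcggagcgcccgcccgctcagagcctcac
Hes5, chr4:154960673-154960922, plus strand: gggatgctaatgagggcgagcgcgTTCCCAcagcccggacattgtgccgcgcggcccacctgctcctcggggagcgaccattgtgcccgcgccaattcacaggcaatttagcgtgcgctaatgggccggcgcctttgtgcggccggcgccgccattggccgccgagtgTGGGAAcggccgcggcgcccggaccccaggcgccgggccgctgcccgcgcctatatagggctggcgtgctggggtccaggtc
Lfng, chr5:140607091-140607340, plus strand: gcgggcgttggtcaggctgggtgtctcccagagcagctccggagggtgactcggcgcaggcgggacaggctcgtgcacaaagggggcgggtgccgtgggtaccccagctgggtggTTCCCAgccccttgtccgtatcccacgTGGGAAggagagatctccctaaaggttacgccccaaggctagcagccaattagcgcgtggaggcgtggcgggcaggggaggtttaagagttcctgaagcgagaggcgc
Both strands were searched. The core TGGGAA was found for 2 of the 10 members, Lfng and Rbpj, and in 21.6% of 32851 windows of the same length. The longer GTGGGAA, which contains the core, was found for 1 member, Lfng, and in 5.42% of windows. Hes5 held GTGGGAA at 83 to 77 bases before its start and, on the opposite strand, at 226 to 220 bases. In Lfng the longer match lay 109 to 103 bases before the start. A match describes letters and not a bound site, and the Notch1 window held neither string.

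Notch1, the receptor that is best known for maintaining retinal progenitors, had signals of 492, 552 and 610 in knockout pools 1, 2 and 3, against 962, 1061 and 942 in wildtype pools 1, 2 and 3. Every knockout pool was well below every wildtype pool, and the gap between the groups exceeded the spread within either. The level was 9.14 ± 0.15 in knockout and 9.97 ± 0.09 in wildtype (log2 scale, SD, n = 3 each), a difference of -0.83 (SE 0.10, 95% interval -1.06 to -0.59, limma adjusted p = 0.00608), which is a 1.77-fold fall. The second Notch1 probe set read 210, 210 and 221 in knockout against 373, 427 and 309 in wildtype, again with no overlap. In a fit over 20967 probe sets its log2 difference was -0.74 (limma adjusted p = 0.0281). The Notch1 difference was -0.83 on the arrays with brighter hybridisation controls and -0.71 on the others. For any gene whose groups do not overlap, both must have the same sign, so only their size is informative. Each of these sets holds a single array of one genotype. When pools 1 and 2 were averaged within genotype, so that 2 samples stood for each, the difference was -0.77 and the call ended (limma adjusted p = 0.16); the call held in the other 20 alternatives tried.

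Several marker lists also differed between the genotypes, and others did not. All 11 tested proliferation genes were called lower in knockout, and their summed signal was 5660 to 6280 in knockout pools against 11800 to 11900 in wildtype pools. Of the 9 tested progenitor markers other than Ccnd1, Lhx2 and Sox2 were called lower and Fgf15 higher, and the summed signal of the list was 4680 to 4900 in knockout against 5210 to 5510 in wildtype. Neurogenic precursor markers, from the cells that carry Delta ligands, overlapped in their summed signal (9720 to 10300 in knockout and 8670 to 10500 in wildtype). Most of that sum came from Hes6, Otx2 and Neurod1, so it says little about the dimmer genes. Among 10 tested, Neurog2, Foxn4 and Ptf1a were called lower and Btg2 higher. In all, 5 differences were negative and 5 positive, the largest positive one being Atoh7 at 1.00 (limma adjusted p = 0.126). Ganglion cell markers summed to 6600 to 6780 in knockout and 4350 to 4600 in wildtype. Of 9 tested genes 5 were called higher, and all 9 differences were positive. Muller glia markers summed to 8110 to 8410 in knockout and 5610 to 5980 in wildtype, with 4 of 8 called higher and all 8 differences positive. Genes on this list need not be exclusive to Muller glia, and which cells carried their RNA was not measured. Lens genes, from tissue outside the retina, summed to 26400 to 67100 in knockout and 3490 to 9470 in wildtype. Of these, 11 of 14 were called higher and all 14 differences were positive. Among all tested genes 2.03% were called higher and 2.63% lower, and 5931 of 10916 differences were positive. Pigment epithelium markers summed to 927 to 959 in knockout and 1070 to 1490 in wildtype, with Pmel called lower among 5 tested. The part of these shifts in the Notch1 result was not tested. In pooled tissue, fewer cells of a type and less RNA per cell cannot be told apart.

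The other receptors did not pass the test. Notch2, which shares the receptor architecture of Notch1, had signals of 128, 118 and 166 in knockout and 145, 148 and 85.8 in wildtype. The groups overlapped, with wildtype pool 3 the lowest of the 6. Its log2 difference was 0.13 (95% interval -0.38 to 0.63, limma adjusted p = 0.929), and it changed sign to -0.10 without wildtype pool 3 and to -0.01 without knockout pool 3. Notch3, a receptor also known from the mural cells of blood vessels, read 145, 179 and 129 in knockout and 130, 100 and 160 in wildtype. These groups overlapped too, with a difference of 0.20 (95% interval -0.23 to 0.64, limma adjusted p = 0.807), and its second probe set differed by 0.03. Single arrays moved the Notch3 difference to 0.05 (without wildtype pool 2), 0.09 (without knockout pool 2) or 0.35 (without wildtype pool 3), and blocking on the 2 sets of arrays gave 0.08. Pericyte and smooth muscle markers summed to 487 to 598 in knockout and 417 to 478 in wildtype, without overlap, with 3 of 9 genes bright enough to test and none called. Of the 3, 2 had positive differences and 1 a negative one. Rgs5 read 143, 145 and 111 in knockout and 87.9, 82.1 and 56.6 in wildtype, a difference of 0.71 (limma adjusted p = 0.101).

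The change of Notch1 was set against that of each other member within every array, by taking Notch1 minus that member on the log2 scale. For 7 of the 8 other tested members, all except Dll4, the 3 knockout values lay below the 3 wildtype values. This has an exact two-sided permutation p of 0.1 in each case, the smallest that 3 pools against 3 allow. The excess of the Notch1 change ran from -1.03 against Notch3 to -0.44 against Lfng. Of all 10915 other tested genes, 88.5% gave the same separation when subtracted from Notch1, so the count for the members is near that background. Against Rbpj the Notch1 value was 0.56 to 0.96 in knockout and 1.35 to 1.75 in wildtype, and the change was -0.80.

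**Figure D2:**
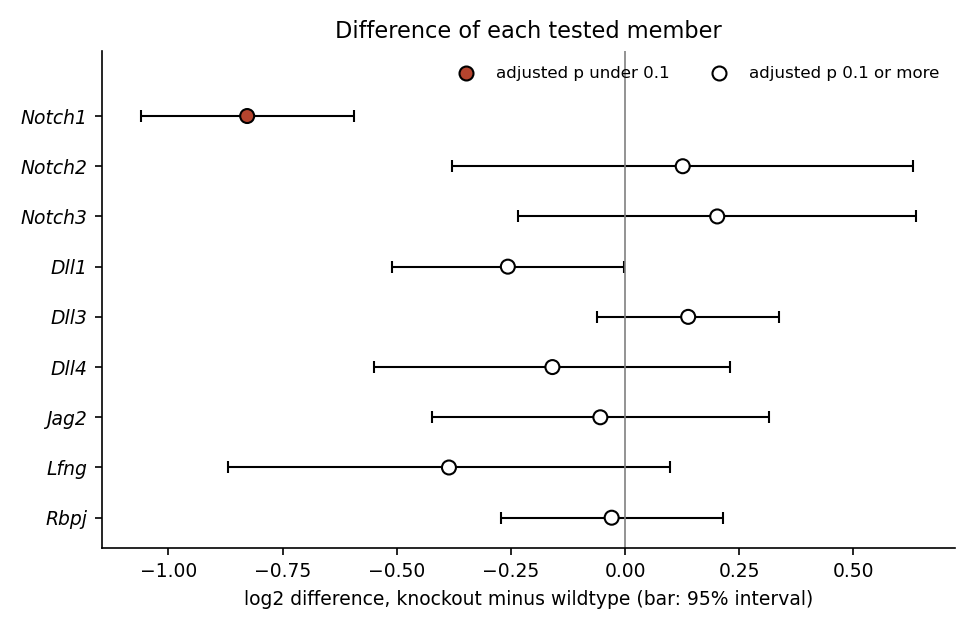
Log2 difference, knockout minus wildtype, of the 9 members bright enough to test, with 95% intervals from limma (3 pools per genotype). The interval of Notch1 runs from -1.06 to -0.59, that of Dll1 ends just below 0, and the other 7 include 0.

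The Delta ligands gave small differences in both directions. Dll1, which activates Notch on neighbouring cells, read 323, 328 and 354 in knockout and 377, 378 and 459 in wildtype. The groups did not overlap, and wildtype pool 3 stood highest. Its difference was -0.26 (SE 0.11, unadjusted 95% interval -0.51 to -0.0018), but with all tested genes taken into account it did not pass (limma adjusted p = 0.365). On the arrays with brighter controls, where wildtype pool 3 is the single wildtype array, the difference was -0.48, and on the others -0.09. Without wildtype pool 3 it was -0.17.

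Dll3, a divergent Delta protein that does not activate Notch on neighbouring cells, read 388, 392 and 393 in knockout and 352, 362 and 348 in wildtype. Its pools were very close to each other within a genotype (SD 0.01 and 0.03 on the log2 scale, against medians over all tested genes of 0.12 among knockout and 0.20 among wildtype pools). All knockout pools were higher, by 0.14 (95% interval -0.06 to 0.34), with a limma adjusted p of 0.615, since limma draws each gene's spread toward that of genes of similar brightness. The difference was 0.16 on the arrays with brighter controls and 0.13 on the others.

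Dll4, a ligand of newly born retinal neurons and also of sprouting vessels, read 151, 175 and 122 in knockout and 157, 147 and 199 in wildtype. The pools overlapped, and the difference was -0.16 (95% interval -0.55 to 0.23, limma adjusted p = 0.848). It was -0.04 without knockout pool 3 or without wildtype pool 3, -0.27 without knockout pool 2, -0.24 without wildtype pool 2 and -0.28 when blocked on the sets of arrays. Its dimmer probe set read 63.2, 56.2 and 49.1 in knockout and 115, 101 and 46.5 in wildtype. There the first pair of wildtype pools was highest and wildtype pool 3 lowest, the reverse of the brighter probe set, and the difference was -0.45 (limma adjusted p = 0.65). Of 12 endothelial markers 5 were bright enough to test and none was called, and Pecam1 and Cdh5 were among the 7 too dim. The summed signal of that list was 1720 to 1770 in knockout and 1750 to 1850 in wildtype. Most of it was Kdr, at 1085, 1040 and 1116 in knockout and 1066, 1095 and 1116 in wildtype, so the sum says little about the others. Of the 5 tested, 1 did not overlap, beside 9.48% of all tested genes lower in this way. That was Cldn5, at 81.7, 79.1 and 60.2 in knockout and 157, 174 and 94.8 in wildtype, a difference of -0.79 (limma adjusted p = 0.133).

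The Jagged ligands were dim on these arrays. Jag1, whose gene is also active in the lens and the rim of the retina, read 33.2, 46.8 and 43.8 in knockout and 54.7, 32.5 and 46.5 in wildtype from its brightest probe set. Being among the 7277 dimmest genes, Jag1 was not tested at the gene level, and the difference of that probe set was -0.07. A second Jag1 probe set, too dim to test, read 50.3, 44.5 and 43.5 in knockout and 38.6, 32.0 and 20.6 in wildtype, with no overlap and a difference of 0.44. The third differed by 0.16, so the 3 probe sets did not share a sign. Jag2 read 53.8, 66.1 and 72.5 in knockout and 77.4, 66.3 and 57.8 in wildtype, with a difference of -0.05 (95% interval -0.42 to 0.32, limma adjusted p = 0.961) whose sign depended on the setting.

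**Figure D3:**
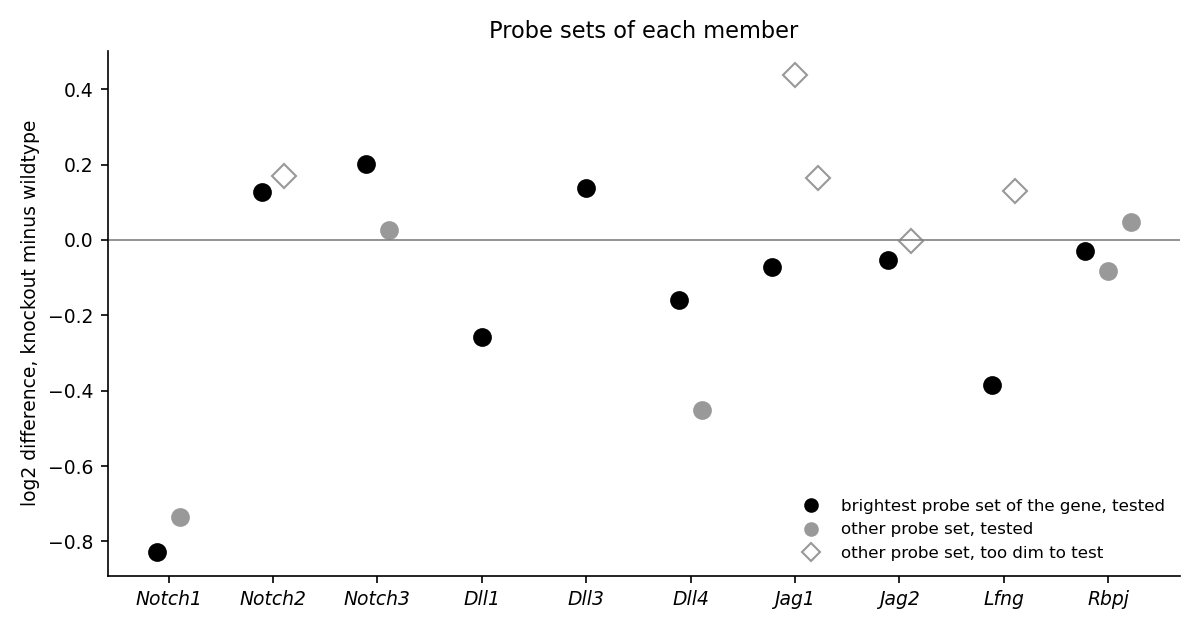
Log2 difference, knockout minus wildtype, of each of the 20 probe sets of the members. Black marks the brightest probe set of a gene, gray the others, and open diamonds the 5 probe sets too dim to test in the fit over probe sets; both Notch1 probe sets lie below -0.7, while those of Jag1, Lfng and Rbpj fall on both sides of 0.

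Over probe sets, 15 of the 20 were bright enough to test. Of these, 2 were called lower, both of Notch1, and 0 higher, beside 2.02% and 1.51% of all tested probe sets. Probe sets of a gene share their samples and are not replicates.

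Lfng, the Fringe enzyme that extends fucose on Notch and so favours Delta over Jagged ligands, was set apart by 1 pool. It read 152, 140 and 149 in knockout and 235, 239 and 134 in wildtype, so wildtype pools 1 and 2 were high and wildtype pool 3 lay below all knockout pools. The difference was -0.39 (95% interval -0.87 to 0.10, limma adjusted p = 0.533). Without wildtype pool 3 it was -0.64 and passed the test (limma adjusted p = 0.00701), while without wildtype pool 1 or 2 it was -0.27 and -0.25. It was 0.11 on the arrays with brighter controls, where wildtype pool 3 is the single wildtype array, and -0.62 on the others. The other Lfng probe set was too dim to test and differed by 0.13.

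Rbpj, through which all the receptors act in the nucleus, showed no detectable difference at this number of arrays. It read 329, 342 and 306 in knockout and 334, 305 and 361 in wildtype, with overlapping groups. The difference was -0.03 (SE 0.11, 95% interval -0.27 to 0.21, limma adjusted p = 0.967), and the other Rbpj probe sets differed by -0.08 and 0.05.

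Around the family, 64 other genes were listed for the pathway by role. Of these, 59 were named on the array and 55 were bright enough to test, of which 2 were called lower, Hes5 and Gxylt1, and 0 higher, beside the 2.63% and 2.03% of all genes. At an unadjusted p under 0.05 there were 5 lower and 4 higher, beside 13.5% of all tested genes in either direction, a share close to that of these genes. The median difference was 0.01, against 0.02 for all tested genes. The groups did not overlap for 7 genes with knockout lower and 7 with knockout higher, beside 9.48% and 10.5% of all tested genes, so these counts are near the background too.

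Hes5, a repressor switched on by Notch, read 770, 878 and 919 in knockout and 1570, 1732 and 1473 in wildtype. All knockout pools were lower, by -0.88 (SE 0.10, limma adjusted p = 0.00373), a 1.85-fold fall that was -0.83 on the arrays with brighter controls and on the others alike. That probe set carries the x suffix that Affymetrix gives to probes able to match other transcripts. The second Hes5 probe set differed by -0.74 and did not pass over probe sets (limma adjusted p = 0.115). The other targets, Hes1, Hey1, Hey2, Heyl and Nrarp, did not pass, with differences from -0.17 for Nrarp to 0.18 for Hey1. Hes6, a factor of neurogenic precursors that was listed in the same row, differed by -0.18 and did not pass either. Hes1, the other main Hes repressor of progenitors, differed by -0.08 (limma adjusted p = 0.908), and Nrarp, a feedback inhibitor of Notch, by -0.17 (limma adjusted p = 0.597).

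Gxylt1, which adds xylose to the O-linked glucose on Notch repeats, read 124, 116 and 115 in knockout and 323, 298 and 240 in wildtype from its single probe set. The groups were far apart, with a difference of -1.17 (SE 0.14, limma adjusted p = 0.00536), a 2.24-fold fall. It was -0.91 on the arrays with brighter controls and -1.32 on the others, and with pools 1 and 2 averaged it was -1.12 and the call ended (limma adjusted p = 0.171). None of the 4 other tested sugar-transfer genes passed. Mfng, the manic Fringe, differed by -0.28 (limma adjusted p = 0.586) and was high in wildtype pools 1 and 2 (281 and 273) but not in wildtype pool 3 (188), a pattern like that of Lfng.

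**Figure D4:**
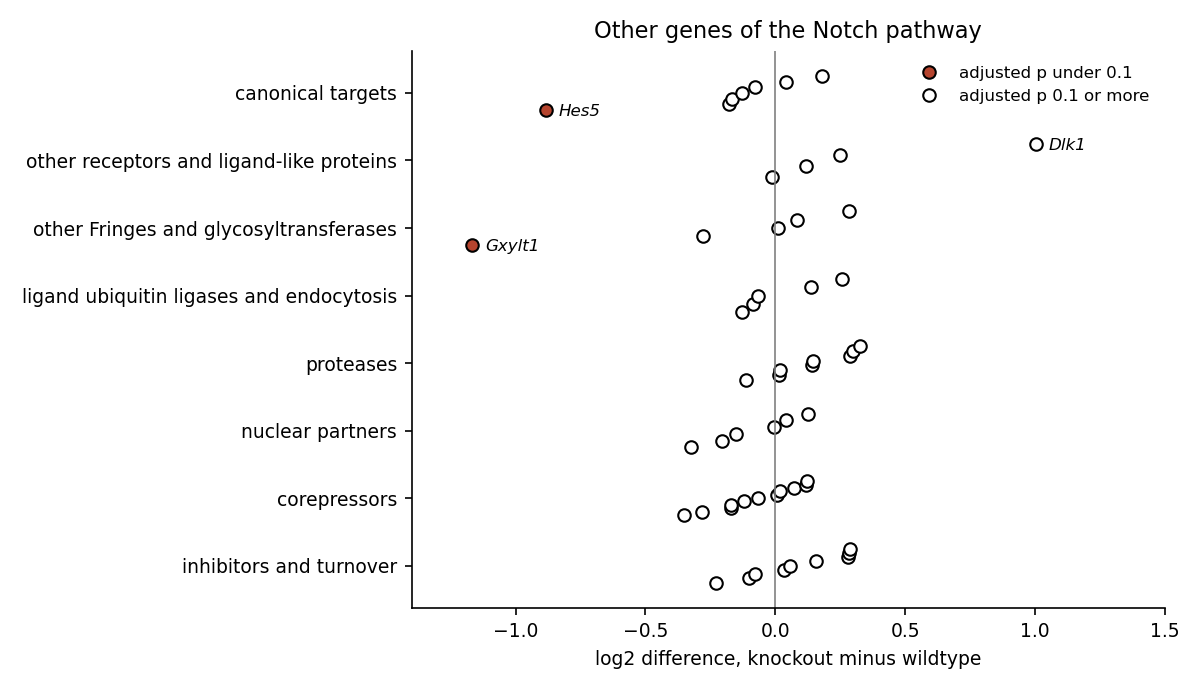
Log2 difference, knockout minus wildtype, of the 55 tested genes listed for the pathway outside the family, in rows by role. The row of canonical targets also holds Hes6, and that of corepressors also holds Ciao1. Filled points are called at a limma adjusted p under 0.1; Hes5 and Gxylt1 lie to the left, and Dlk1, at 1.00, lies to the right without passing the test.

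No tested gene passed among the remaining roles. Dlk1, a Delta-like protein without the receptor-activating domain, read 220, 207 and 90.6 in knockout and 75.0, 78.0 and 65.3 in wildtype, so knockout pools 1 and 2 carried most of its difference of 1.00 (limma adjusted p = 0.146). Dner, a neuronal Delta-like protein, differed by 0.25. Of the 8 tested proteases 7 had positive differences, beside 5931 of all 10916 tested genes. The smallest p among them was that of Psen2, a catalytic subunit of gamma-secretase, at 0.33 (limma adjusted p = 0.351). Aph1a, another subunit, differed by 0.30 (limma adjusted p = 0.436), and Psenen and Aph1b by 0.01 and 0.02. Among nuclear partners the acetyltransferase Crebbp, a coactivator, differed by -0.32 (limma adjusted p = 0.229) and its relative Ep300 by -0.20. For the 11 tested genes listed as corepressors, Spen differed by -0.35 (limma adjusted p = 0.237) and Ctbp2 by -0.28. Spen binds Rbpj in the absence of Notch. That list also holds Ciao1, which is not an established corepressor. The Deltex genes Dtx4 and Dtx1, regulators of receptor trafficking, differed by 0.29 and 0.28 (limma adjusted p = 0.179 and 0.278). The endocytic adaptors Epn2 and Epn1, which ligand-sending cells use, differed by 0.26 and 0.14.

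The genes whose profile over the 6 pools was most like that of Notch1 were found by the root mean square difference of log2 values, each centred on its own mean. The 5 nearest of all tested genes were Meis2, a homeobox factor (0.03), Ncapg2, a condensin subunit (0.04), Hes5 (0.04), Kif4, a mitotic kinesin (0.05), and Tk1, thymidine kinase of S phase (0.05). All 5 were called lower, with differences from -0.88 for Hes5 to -0.81 for Kif4, and a profile near that of Notch1 makes such a difference likely by construction. The nearest to Dll1 were Chek2, Heca, Sf3a2, Tmem161b and Rbm26 (0.04 each), none of them called, with differences from -0.31 for Sf3a2 to -0.25 for Rbm26.

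**Figure D5:**
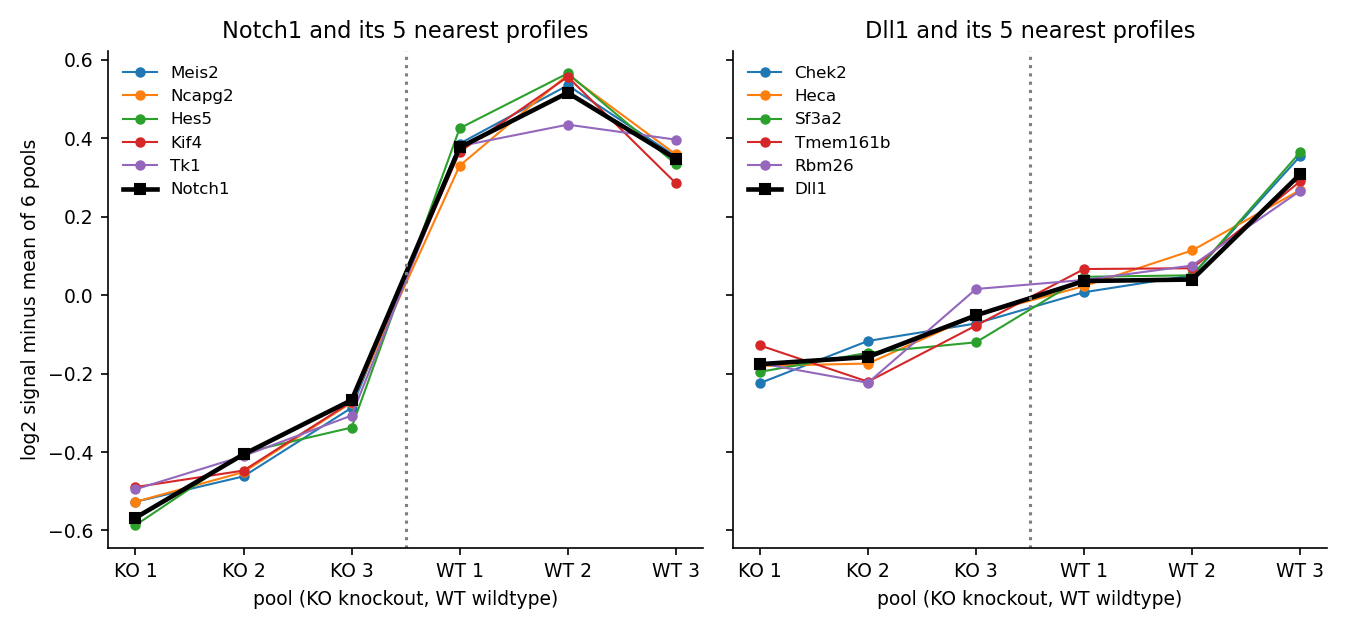
Log2 signal of Notch1 (left) and Dll1 (right), each with its 5 nearest profiles, after subtracting the mean over the 6 pools of each gene. KO marks knockout and WT wildtype pools, whose numbers carry no order, and lines only join the points of a gene; the Notch1 group splits by genotype, while the Dll1 group is highest in wildtype pool 3.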

How the data were processed

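The labels name 3 numbered pools of each genotype. The authors' deposited table holds 1 linear intensity per probe set and array, and neither the summarising program nor the scaling of this intensity is stated in the labels. The 45101 probe sets include 64 controls, which were dropped. The platform annotation gives a single symbol for 34945 of the others, several for 932 and none here for 9160. The single-symbol ones were used, and symbols were updated through RefSeq (GRCm38.p6).

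Array medians differed, so values were quantile normalised, floored at 1 and taken to log2(value + 16). Genes below the 40th percentile of mean log2 signal were not tested. limma 3.58.1 (R 4.3.3) was fitted with an intensity trend and genotype alone, as a two-sided test with p-values adjusted by Benjamini-Hochberg over all tested genes, and likewise over probe sets. The procedure was tested on simulated data. Figures used matplotlib 3.10.9.

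The members and lists were chosen with earlier results of these data known. Named by rule were the 10 members, Ccnd1, called pathway genes and the 2 genes of smallest p in each role, and the 5 profiles nearest to Notch1 and to Dll1. The other Hes and Hey targets, Pax6, Rax, Pecam1 and Cdh5, the progenitor list without Ccnd1, and the extra promoter window of Hes5 were added after values were seen. The promoter table of RefSeq was searched for exact strings. Alternatives covered scaling, pseudocount, filter, probe set choice, variance and error models, threshold, blocks, averaged pools and leaving out each array. Arrays were ranked on the mean log2 signal of 5 BioB and BioC control probe sets, and the upper 3 were taken as the brighter set.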

Additional observations from a re-analysis of the deposited data

How the results depend on the processing

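Notch1 kept its direction in all 21 alternatives, with log2 differences from -0.90 to -0.64, and its call in 20; with pools 1 and 2 of each genotype averaged, no family gene was called lower (0 against 1). Family genes lower numbered 1 to 2 when an array was left out, the second being Lfng without wildtype pool 3, and family genes higher were 0 throughout. Of the other pathway genes, none was higher at first, but 3 were with values as deposited and 2 with the array set as a block, and 0 to 4 when an array was left out; those lower numbered 1 with averaged pools, and 2 to 6 when an array was left out. Member probe sets called lower, 2 at first, were 1 with arrays centred on their medians, 1 with the replicate block, 0 with averaged pools, 1 with the submitters' error model, and 1 to 4 when an array was left out. Over all genes, 222 higher and 287 lower became 416 and 176 with values as deposited, 118 and 121 with centred arrays, 126 and 143 with the replicate block, 597 and 433 with the array set as a block, 17 and 26 with averaged pools, and 88 and 120 with the submitters' error model, whose denominator degrees of freedom were taken as 9. At a threshold of 0.05, 127 were higher. Leaving out an array gave 68 (without knockout pool 1) to 862 (without wildtype pool 3) higher and 99 to 1055 lower, for the same pools. Higher calls were 43.6% of all calls, 70.3% with values as deposited, where the median of all genes moved from 0.02 to 0.13, and 58.0% with the array set as a block. With values as deposited, Jag2 turned to 0.015 and Rbpj to 0.125, both below that median. Jag2 also turned with the array set as a block and with averaged pools (0.025 each), and without knockout pool 1 (0.042) or wildtype pool 1 (0.033). Rbpj turned with centred arrays (0.036) and without knockout pool 3 (0.012) or wildtype pool 3 (0.028), and Notch2 without knockout pool 3 (-0.005) or wildtype pool 3 (-0.099). Leaving out an array gave -0.137 to 0.042 for Jag2, -0.089 to 0.028 for Rbpj and -0.099 to 0.247 for Notch2. The cause of these changes was not tested. Jag2 was left untested with the lowest 60% of genes removed, and Notch2 with the probe set of largest difference chosen.

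Whether the replicate numbers pair the samples could not be decided, since deviations from a mean of 3 pools are tied to each other. Deviations from the genotype means correlated at 0.17, -0.35 and -0.48 for numbers 1, 2 and 3, and 1 of 6 arrays correlated best with its own number. With the replicate block Notch1 had the same difference, -0.83, and stayed called (limma adjusted p = 0.0352). Of the profiles near Notch1, Ncapg2 and Kif4 each lost their call in 5 alternatives, Tk1 in 2 and Meis2 in 1. Hes5 kept its call in all 21, but only just in the weakest, where its Benjamini-Hochberg adjusted p was 0.0982. Averaging leaves 2 samples per genotype, and dim genes such as Jag1 and Jag2 have little signal over background to measure.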
